A study of Bos taurus with 20 samples.

Results

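The amino acid transporters of the bovine endometrium were taken as all array probes whose gene name starts with SLC1A, SLC3A, SLC6A, SLC7A, SLC15A, SLC36A, SLC38A or SLC43A. This gave 57 of the 25325 gene names on the array, read by 111 of the 43653 probes that are not controls. The rule used names only and no measured value. Endometrium was biopsied from 10 cows on 2 occasions, early (day 42 to 86 after calving, mean 60.1 ± 13.3, SD, n = 10) and late (day 343 to 436, mean 388.9 ± 27.5, SD, n = 10). By the design text both biopsies were taken 7 days after oestrus and came from the uterine horn next to the corpus luteum. The labels name no treatment, breed or age, and each cow was older at its late biopsy, so age and interval after calving cannot be told apart. The RNA of each biopsy was hybridised to a 1-colour Agilent array, which gave 20 arrays. Cows are numbered 1 to 10 by the sample titles.

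Amino acids cross membranes only through carriers, and each carrier family has its own driving force and its own choice of substrates. The SLC1 family takes up glutamate, aspartate and small neutral amino acids with sodium. SLC6 and SLC38 carriers also use the sodium gradient, for glycine, GABA, taurine, proline, glutamine and alanine among others. SLC7 light chains exchange 1 amino acid for another, and most of them reach the cell surface only when bound to an SLC3 heavy chain. SLC15 carriers move short peptides and histidine with protons, and some SLC36 carriers move small amino acids with protons. SLC43 carriers let large neutral amino acids leave the cell. In ruminants amino acids reach the uterine lumen from the glands and lining in the luteal phase, and the unattached conceptus takes them up there.

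Levels are the signal of 1 probe, a synthetic oligonucleotide of 60 bases that matches a stretch of 1 transcript, so the probes below are what the results rest on. They are the probes with the smallest p in the late against early comparison for SLC15, SLC6, SLC38 and SLC36, a probe of SLC7A7, a probe of SLC6A9 whose call depended on the setting, and a pair of SLC15A4 probes whose changes differed. Each reads 5′ to 3′ as the scanner files give it.
SLC15A3 A_73_P061231: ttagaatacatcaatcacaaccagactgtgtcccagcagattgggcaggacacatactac
SLC15A4 A_73_P463377: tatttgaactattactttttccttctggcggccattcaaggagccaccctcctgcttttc
SLC15A4 A_73_120675: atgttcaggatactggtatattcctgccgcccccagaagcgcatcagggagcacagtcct
SLC7A7 A_73_113949: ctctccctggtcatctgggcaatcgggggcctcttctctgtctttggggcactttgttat
SLC6A14 A_73_P471873: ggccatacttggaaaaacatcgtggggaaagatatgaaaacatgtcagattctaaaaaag
SLC38A11 A_73_109571: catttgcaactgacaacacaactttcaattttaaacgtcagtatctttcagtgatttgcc
SLC36A3 A_73_121158: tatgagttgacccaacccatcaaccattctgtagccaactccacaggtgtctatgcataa
SLC6A9 A_73_P108469: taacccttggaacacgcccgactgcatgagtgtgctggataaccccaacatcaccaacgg

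On the HGSC Btau_3.1 build of the file headers the SLC15A3 probe lies at chr29:39017396-39017455 on the minus strand. The SLC15A4 probes lie at chr17:51035355-51035414 and chr17:51015863-51015922, both on the plus strand, so they read different stretches of the gene. The SLC7A7 probe is at chr10:22295329-22295388 and the SLC6A9 probe at chr3:108929220-108929279, both on the plus strand, and the SLC36A3 probe at chr7:62188536-62188595 on the minus strand. The SLC38A11 probe is listed at chr2:32376256-32392464, a span far longer than the probe, as it would be for a probe that crosses an intron. The scanner files give the SLC6A14 probe no position, as for 11 of the 111 probes. Every printed probe has at least 1 forward reading frame without an internal stop. Exon numbers and transcript regions were not determined.

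Most of the carriers could be measured. Of the 111 probes, 61 were well above background on all 20 arrays, 16 on 8 to 19, 14 on 1 to 7 and 20 on none. The 77 probes on at least 8 arrays, of 42 genes, entered the tests. The other 15 genes had no probe that did. They included SLC7A1 and SLC7A2, carriers of arginine and lysine, with at most 6 and 0 arrays, and SLC7A11, the cystine and glutamate exchanger, with 0. SLC3A1, the heavy chain of kidney and gut, and its partner SLC7A9 were above background on 0 arrays, and so was the glutamate carrier SLC1A6. SLC6A5 and SLC6A7, carriers of glycine and proline in nerve tissue, and SLC6A18, a kidney carrier of neutral amino acids, were above background on 0 arrays. The noradrenaline carrier SLC6A2 was on 2. The remaining genes without a tested probe were SLC36A2, SLC6A15, SLC6A17, SLC7A13 and SLC7A14. A probe below background gives no level, and a gene can be present where its only probe is dim.

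**Figure D1:**
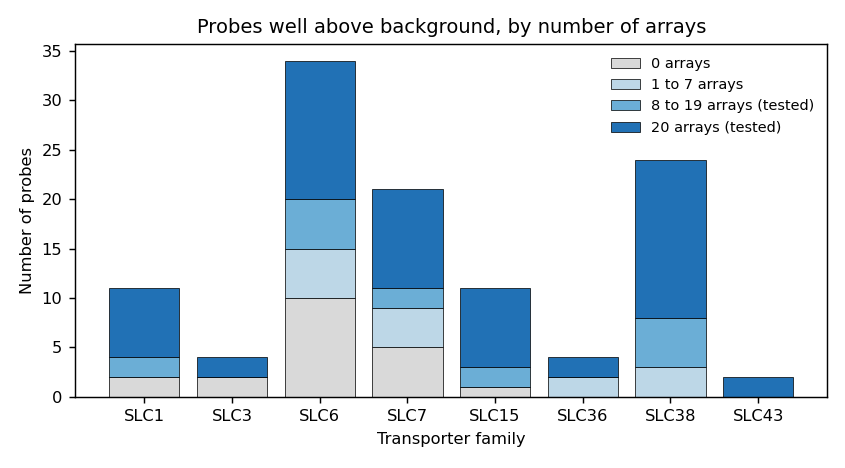
Number of probes (vertical axis) in each of the 8 transporter families (horizontal axis), split by the number of the 20 arrays on which the probe was well above background. The 2 darkest classes, on 8 to 19 and on 20 arrays, hold the 77 probes tested; SLC6 has the most probes below background on every array, 10 of 34.

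The names of some probes are uncertain. SLC7A6OS is caught by the prefix but is the neighbour of SLC7A6 on the opposite strand and no carrier. RefSeq, on the ARS-UCD2.0 assembly, gives both SLC15A2 probes the symbol LOC506921 (synonym PEPT2, chromosome 1). It lists SLC15A2 as a separate gene, also on chromosome 1, to which neither probe was matched. The symbol LOC515755 (chromosome 13) goes to 3 of the SLC6A9 probes, while SLC6A9 itself lies on chromosome 3 there. RefSeq gives the SLC7A13 probe the symbol LOC518422. The array's names are kept below, and probes of SLC6A9 are given one by one. SLC6A9 probes A_73_P031291 and A_73_P038681 share a run of 50 bases, and SLC7A6 probes A_73_P042836 and A_73_P405656 share 53, so each of these 2 combinations may read the same transcripts.

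The share of spots that cleared the background ran from 71.8% to 80.2% over the arrays, and none was saturated. The early array of cow 4 stood apart over all probes, with a median correlation of 0.944 with the other early arrays. That of cow 9 had 0.967, and the other early arrays at least 0.977. Among the 77 transporter probes the early array of cow 4 was the lowest or the highest of its period for 35, the late array of cow 9 for 31, the late array of cow 6 for 27, the early array of cow 2 for 25 and the early array of cow 9 for 23. Slide and period largely coincide: of 5 slides, slides 1 and 2 held only early arrays, slides 4 and 5 only late ones, while slide 3 mixed early samples (cows 9 and 10) and late samples (cows 1 and 2). With slide as a further block 42 of the 77 probes kept the sign of their change, and the standard error of a median probe was 4.78 times as large. Period and slide can therefore hardly be told apart, and the values within slide 3, which compare different cows, are given beside the main results.

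The comparison of late with early within each cow asks which carriers changed in the year after calving. No transporter probe passed an adjusted p of 0.05 (limma with cow as a block, Benjamini-Hochberg over 33759 probes), where 1.13% of all probes did. The smallest adjusted p was 0.0606, for SLC15A3. At an unadjusted p under 0.05 there were 19 of 77 probes (24.7%), 10 higher and 9 lower late, of 13 genes. Over all probes those shares were 23.8% in all, 10.4% higher and 13.4% lower, so the transporters were near the background. With cow as a random effect 5 of the 77 probes (6.49%) passed the adjusted threshold, against 4.55% of all probes, 1 each of SLC15A3, SLC15A4, SLC7A7, SLC6A9 and SLC38A11. The median change of the 77 was -0.03 on the log2 scale, against -0.02 over all probes tested, and the values ran from -0.62 for a probe of SLC1A3 to 1.28 for SLC38A11. The 95% interval lay within ±1 log2 (2-fold either way) for 62 of the 77 probes and within ±0.5 for 30. For no transporter probe did the late values lie wholly apart from the early ones, and the matching share over all probes was not counted.

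**Figure D2:**
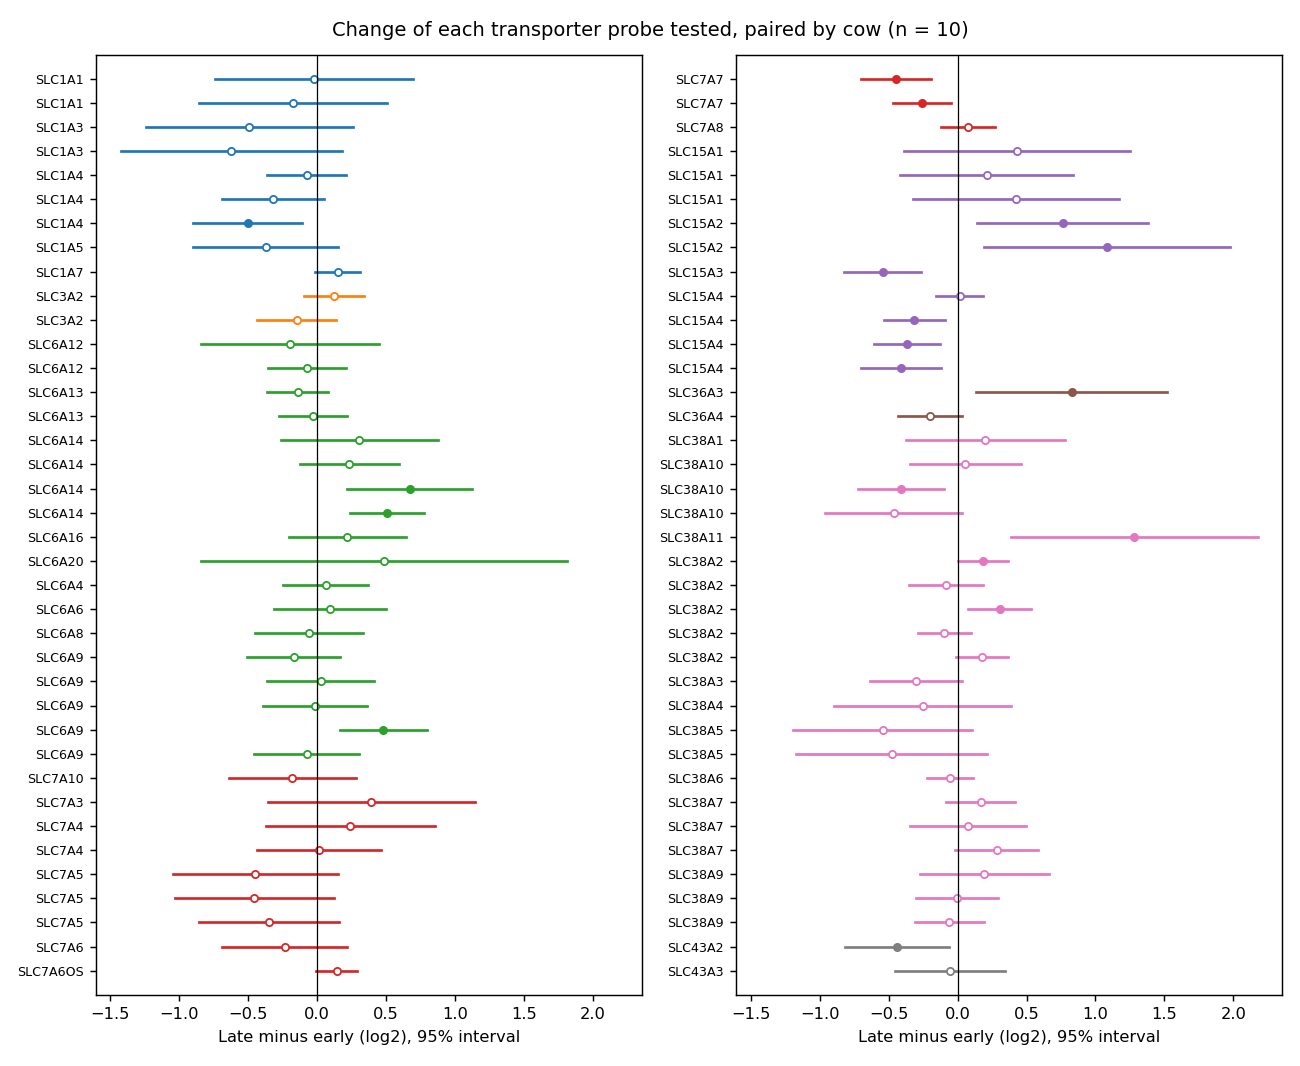
Late minus early level (log2, horizontal axis) of 76 of the 77 tested probes, 1 row per probe named by gene and coloured by family, with the 95% interval of the fit paired by cow (n = 10). Filled points have an unadjusted p under 0.05 (18 of the 76), and no probe has an adjusted p under 0.05; the widest interval belongs to SLC6A20.

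The peptide carriers of the SLC15 family held 6 of the 19 probes with an unadjusted p under 0.05, and with cow as a fixed block none passed the adjusted threshold. The family had 10 tested probes, and the share over all probes was 23.8%. Of the 6 probes, 3 were of SLC15A4, 2 of SLC15A2 and 1 of SLC15A3, and probes of 1 gene are not independent. SLC15A3 and SLC15A4 are carriers of the lysosome membrane that export histidine and peptides and are known from immune cells. SLC15A1 and SLC15A2 are the peptide carriers of the surface of epithelia. SLC15A3 levels ran from -5.35 to -4.23 early (median -4.83) and from -5.66 to -4.93 late (median -5.37), in log2 units relative to the array's 75th percentile. All 10 cows had the lower value late, while the ranges of the periods overlapped. The change was -0.54 ± 0.13 (SE, limma adjusted p = 0.0606), 1.46-fold lower, with a 95% interval of -0.82 to -0.26. It was -0.41 within slide 3, -0.05 with slide as a block and -0.43 without cows 4 and 9 (limma adjusted p = 0.109), and the cause of these differences was not tested.

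SLC15A4 was read by 4 probes. The brightest, A_73_P031696, ran from -0.51 to 0.08 early (median -0.23) and from -0.85 to -0.23 late (median -0.62), and 9 of 10 cows had the lower value late. Its change was -0.31 ± 0.10 (SE, limma adjusted p = 0.110), and those of A_73_P344067 and A_73_P463377 were -0.36 and -0.41 (limma adjusted p = 0.0931 and 0.109). With slide as a block these 3 were at -0.08, -0.16 and 0.02, and within slide 3 between -0.57 and -0.53. The 4th probe, A_73_120675, went from a mean of -1.40 ± 0.18 to -1.39 ± 0.26 (SD, n = 10), a change of 0.01 with a 95% interval of -0.16 to 0.19. The probes of SLC15A4 therefore did not read alike, and the difference between them was not tested.

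SLC15A2 takes up di- and tripeptides at the cell surface. Both probes that carry its name on the array, matched by RefSeq to LOC506921, had positive changes. On probe A_73_P030546 the level ran from -3.30 to -0.67 early (median -1.68) and from -1.82 to -0.27 late (median -0.80), and 8 of 10 cows had the higher value late. The change was 0.76 ± 0.28 (SE, limma adjusted p = 0.141), 1.70-fold higher. Early the cows differed widely, with cow 9 lowest at -3.30 and cow 6 next at -2.82. The dimmer probe A_73_P312621 had a change of 1.08 ± 0.41 (SE, limma adjusted p = 0.144), and 8 of the 10 early and all 10 late arrays were well above background. Both changes were smaller without cows 4 and 9, at 0.35 and 0.49 (limma adjusted p = 0.242 and 0.213), and -0.03 and -0.06 with slide as a block, against 1.37 and 1.80 within slide 3. SLC15A1, the peptide carrier of the gut, had 3 tested probes with changes of 0.43, 0.21 and 0.42, each with an interval that held 0. Without cows 4 and 9 they were -0.02, -0.04 and 0.03, and with slide as a block -0.99, -0.16 and -0.91.

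Among the exchangers, SLC7A7 is the light chain that carries arginine and lysine out of the cell in return for neutral amino acids and sodium. Its brighter probe, A_73_108595, ran from 0.76 to 1.54 early (median 1.16) and from 0.20 to 1.41 late (median 0.77). The late value was the lower in all 10 cows, although the periods overlapped: 5 late values, of cows 2, 3, 8, 9 and 10, lay above the lowest early one. The change was -0.44 ± 0.12 (SE, limma adjusted p = 0.0734), 1.36-fold lower, with -0.70 within slide 3 and -0.56 with slide as a block. The other probe, A_73_113949, had -0.26 ± 0.10 (SE, limma adjusted p = 0.145), with 8 of 10 cows lower, so both probes pointed the same way.

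SLC3A2 is the heavy chain that SLC7A7 needs to reach the membrane. Its brighter probe ran from 1.99 to 2.75 early (median 2.53) and from 2.25 to 2.90 late (median 2.54), with a change of 0.12 and a 95% interval of -0.09 to 0.34. The dimmer probe had -0.15, with an interval of -0.43 to 0.14, so both intervals held 0. SLC7A5, the light chain for leucine and other large neutral amino acids that also binds SLC3A2, had changes of -0.45, -0.46 and -0.35 on 3 probes (limma adjusted p between 0.307 and 0.368). Without cows 4 and 9 these were -0.08, -0.10 and -0.09 (limma adjusted p between 0.731 and 0.824), and with slide as a block 1.27, 1.14 and -0.67. The early values of its brightest probe, A_73_P040976, spread from -0.39 to 2.42, against -1.06 to 1.29 late. SLC7A6, a light chain akin to SLC7A7, had -0.24 (interval -0.69 to 0.22), and SLC7A8, which carries small and large neutral amino acids, had 0.07 (interval -0.12 to 0.27). The remaining SLC7 members tested were SLC7A3, SLC7A4 and SLC7A10, and their changes lay between -0.18 and 0.39.

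SLC43A2, which lets leucine, phenylalanine and methionine leave the cell, ran from -2.31 to -0.82 early (median -1.72) and from -2.47 to -0.49 late (median -2.26). In 9 of 10 cows the late value was the lower, and cow 3 was the exception, with the highest late value. The change was -0.44 ± 0.17 (SE, limma adjusted p = 0.161), with -0.88 within slide 3 and -0.24 without cows 4 and 9 (limma adjusted p = 0.323). SLC43A3, which despite its family carries purine nucleobases, had a change of -0.05 ± 0.18 (SE), and the cows differed far more than the periods.

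The SLC6 family held 19 tested probes, 11 with positive and 8 with negative changes. SLC6A14 is the carrier of neutral and cationic amino acids with the widest choice of substrates, driven by sodium and chloride and found on mucosal epithelia. All 4 of its tested probes had positive changes with cow as the block, but 1 of the 4 with slide as a further block, and the 5th was above background on no array. On A_73_P471873 the level ran from -6.98 to -4.60 early (median -5.79) and from -6.10 to -4.43 late (median -5.31). All 10 cows had the higher value late, by different amounts, and the ranges overlapped. The change was 0.51 ± 0.12 (SE, limma adjusted p = 0.0641), 1.42-fold higher, with 1.02 within slide 3 and 0.21 with slide as a block. A_73_P308421 had 0.67 ± 0.21 (SE, limma adjusted p = 0.0997), higher in 9 of 10 cows, but -0.42 with slide as a block. The brightest, A_73_105882, had 0.31 with an interval of -0.26 to 0.87, and A_73_P235797 had 0.23 (interval -0.13 to 0.59). With slide as a block these 2 were at -1.09 and -0.21, and without cows 4 and 9 at -0.01 and 0.03. For A_73_105882 the early values spread from -4.91 to -1.21 and the late ones only from -3.00 to -2.23.

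SLC6A9, the glycine carrier, was the array's name for 5 tested probes, whose changes differed in sign. The brightest, A_73_103477, ran from -0.31 to 1.08 early (median 0.71) and from -0.35 to 1.1 late (median 0.59), with a change of -0.17 (interval -0.51 to 0.17). The dim probe A_73_P108469, which had a mean of -6.05 ± 0.26 early and -5.57 ± 0.39 late (SD, n = 10), had a change of 0.48 ± 0.14 (SE, limma adjusted p = 0.0947), higher in 9 of 10 cows. Without cow 1 it was 0.61 and passed the threshold (limma adjusted p = 0.0485), where 0.201% of all probes passed. Within slide 3 it was -0.38, opposite in sign. A_73_P038681 had a change of -0.02. A_73_P031291 and A_73_P508073, to which RefSeq gives the symbol LOC515755, had 0.02 and -0.08.

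SLC6A20, a proline carrier, had the widest spread of the family. It ran from -4.57 to 1.90 early (median 0.99) and from -1.81 to 1.90 late (median 0.63). Its change was 0.48 ± 0.61 (SE) with an interval of -0.84 to 1.81, wide enough to hold both 0 and a 2-fold rise. The lowest early values were those of cow 4 at -4.57 and cow 10 at -2.86. The change was 0.03 without cows 4 and 9 and -2.50 with slide as a block. The creatine carrier SLC6A8 had -0.06 (interval -0.45 to 0.33), the taurine carrier SLC6A6 0.09 (interval -0.31 to 0.50) and the serotonin carrier SLC6A4 0.06 (interval -0.25 to 0.37). SLC6A12 and SLC6A13, which carry GABA and betaine, had changes between -0.20 and -0.03 on 2 probes each.

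SLC38A11, a poorly known member of the glutamine carrier family, had the largest change of all 77 probes. Its level ran from -6.78 to -3.33 early (median -5.16) and from -5.03 to -2.47 late (median -3.82). Cows 2 and 5 were lower late and the other 8 higher, and the periods overlapped over much of their range. The change was 1.28 ± 0.41 (SE, limma adjusted p = 0.107), 2.43-fold higher, with a 95% interval of 0.39 to 2.18. It was 0.89 within slide 3, 0.67 with slide as a block and 1.37 without cows 4 and 9 (limma adjusted p = 0.158).

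**Figure D3:**
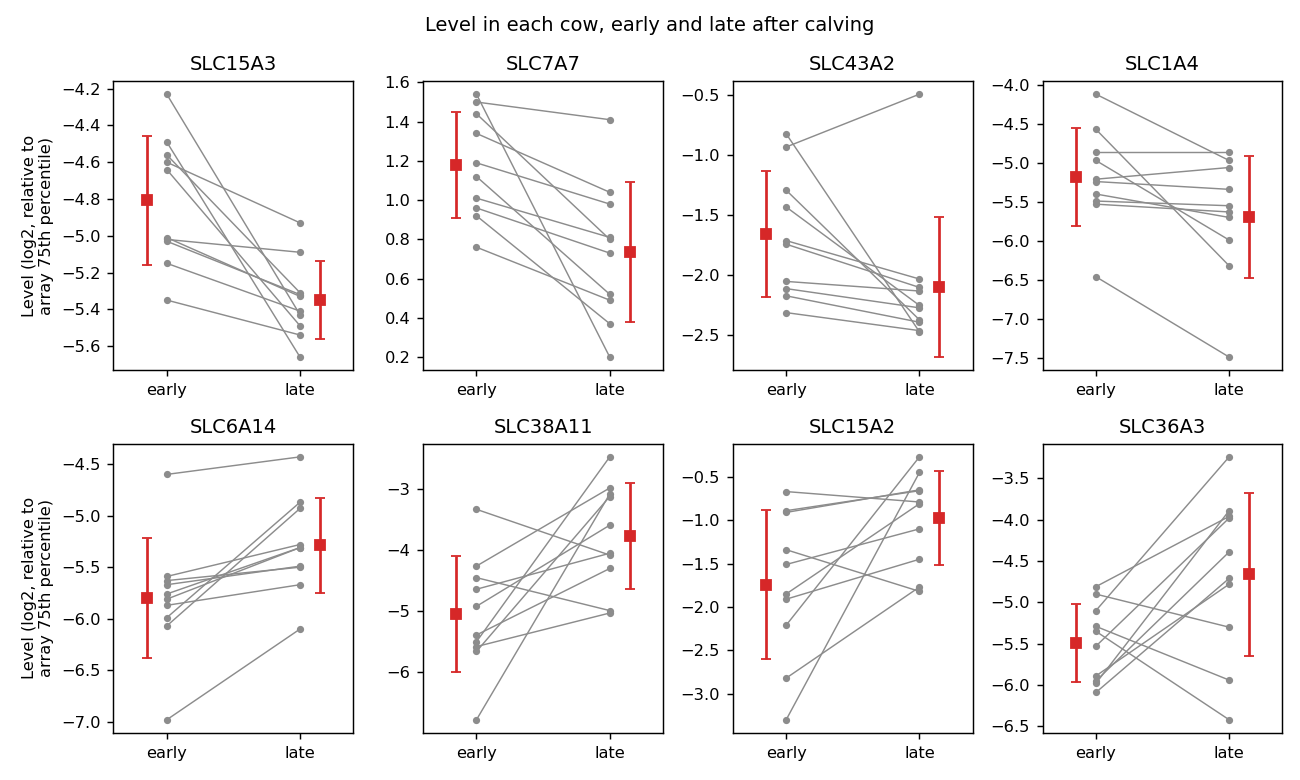
Level of 8 transporter probes (log2 of the signal relative to the array's 75th percentile, vertical axis) early and late after calving; each grey line joins the 2 samples of 1 of the 10 cows, and red squares with bars are the mean ± SD. Every line slopes down for SLC15A3 and SLC7A7 and up for SLC6A14, while the ranges of the periods overlap in all 8 panels; SLC15A2, SLC7A7, SLC6A14 and SLC1A4 show probes A_73_P030546, A_73_108595, A_73_P471873 and A_73_P356916.

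SLC38A2, the carrier that starved cells raise to take up glutamine and alanine, was read by 5 probes. The brightest, A_73_117751, ran from 1.52 to 2.16 early (median 1.94) and from 1.67 to 2.62 late (median 2.03), with a change of 0.18 ± 0.08 (SE, limma adjusted p = 0.207). The others had 0.30, 0.18, -0.08 and -0.10, so the probes of SLC38A2 disagreed in sign. SLC38A1, its close relative, had 0.20 (interval -0.37 to 0.78). SLC38A9, the lysosomal carrier that reports arginine to the growth kinase mTORC1, had 0.19, -0.01 and -0.06 on its 3 probes. SLC38A7, which lets glutamine out of the lysosome, had 0.28, 0.17 and 0.08. SLC38A5 and SLC38A3, which exchange glutamine and histidine for protons, had -0.54 and -0.48 (2 probes of SLC38A5) and -0.30, each with an interval that held 0. Those of SLC38A5 were -0.11 and -0.10 without cows 4 and 9, and 0.96 and 1.20 with slide as a block. SLC38A10 had -0.46, -0.41 and 0.06, of which the second had an interval below 0 (limma adjusted p = 0.125 for A_73_P384931). SLC38A4 and SLC38A6 had -0.25 and -0.05.

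Of the SLC36 genes, 2 had a tested probe. SLC36A3 ran from -6.09 to -4.81 early (median -5.44) and from -6.42 to -3.24 late (median -4.55), and the late arrays held both the lowest and the highest value. The change was 0.83 ± 0.32 (SE, limma adjusted p = 0.152), 1.77-fold higher, in 7 of 10 cows, but -0.65 within slide 3 and 1.71 with slide as a block. SLC36A4, which carries proline and tryptophan, ran from -5.15 to -3.87 early (median -4.80) and from -5.13 to -4.78 late (median -4.90), with a change of -0.20 (interval -0.43 to 0.03). The sign of its change turned within slide 3 (0.17) and with slide as a block (0.62).

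In the SLC1 family 8 of 9 tested probes had negative values, with a median of -0.32, against 42 negative of all 77 transporter probes. The 9 probes were of 5 genes, probes of 1 gene are not independent, and the matching share over all probes was not counted. With slide as a block the values had both signs, from -1.17 to 0.62. With cow as the only block 1 probe had an unadjusted p under 0.05, where 23.8% of all probes had such a p. SLC1A4, which exchanges alanine, serine and cysteine, had that probe: A_73_P356916 ran from -6.46 to -4.12 early (median -5.23) and from -7.49 to -4.86 late (median -5.59). Its change was -0.50 ± 0.18 (SE, limma adjusted p = 0.132), lower in 8 of 10 cows, and 0.55 within slide 3. The brightest probe of the same gene, A_73_103367, had -0.08 with an interval of -0.36 to 0.21, and the third had -0.32. SLC1A1, the glutamate carrier of epithelia, ran on its brighter probe from 2.53 to 4.83 early (median 4.33) and from 2.91 to 5.16 late (median 4.07). Its change was -0.02 with an interval of -0.74 to 0.70, and the sign turned within slide 3 (0.67), with slide as a random block and on scaling to the median of detected probes. SLC1A3, the glutamate carrier of glia and macrophages, had -0.49 and -0.62, and without cows 4 and 9 these were -0.05 and -0.17 (limma adjusted p = 0.934 and 0.743). SLC1A5, the main glutamine exchanger of dividing cells, had -0.37 (interval -0.90 to 0.15), with -0.05 without cows 4 and 9 and 0.62 with slide as a block. SLC1A7, a glutamate carrier of the retina, had 0.15 (interval -0.02 to 0.31).

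All 13 epithelial and 12 stromal markers on the array passed the filter on dim probes. Markers of other cells also moved between the periods, and these lists were chosen with earlier results of these data known. Here and in the later gene lists each gene was read by its brightest tested probe. Shares over all probes count every tested probe. Over all probes 1.13% passed the adjusted threshold (limma). At an unadjusted p under 0.05, 10.4% of all probes were higher and 13.4% lower late. Of 15 macrophage and monocyte markers tested, 4 (CD68, VSIG4, MSR1 and TYROBP) were lower late past the threshold and 13 at an unadjusted p under 0.05, with a median change of -0.72. The summed level of that list ran from 5.0 to 6.58 early and from 4.71 to 6.43 late, lower late in 8 of 10 cows. None of the 13 epithelial markers passed, and 3 were higher at an unadjusted p under 0.05, with a median of 0.28 and a summed level of 4.68 to 6.60 early and 5.88 to 6.73 late. The lowest of these was the early array of cow 9. Of 12 stromal markers, HAND2 was lower and 6 were lower at an unadjusted p under 0.05, with a median of -0.31 and a summed level of 8.39 to 8.94 early and 8.16 to 8.65 late. Of 15 T and NK cell markers, NKG7 was lower past the threshold, at -1.20, and the median of the list was -0.18. At an unadjusted p under 0.05, 4 of them (NKG7 included) were lower and 1, CD3D at 0.23, was higher. Of 4 red blood cell markers tested none passed, and 2 (HBA and AHSP) were higher late at an unadjusted p under 0.05. The median of that list was 0.31, and its summed level ran from -2.11 to -1.04 early and from -1.76 to -0.76 late, higher late in 9 of 10 cows. These values stand beside the negative changes of SLC15A3, SLC15A4, SLC7A7 and SLC43A2 and the positive ones of SLC15A2 and SLC6A14, and their part in the result was not tested. In a biopsy, fewer cells of a type and less RNA per cell cannot be told apart.

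Within the early period the cows were sampled over 44 days, so the level of each carrier was also set against the day. No probe of the array had a slope past an adjusted p of 0.05, members or others (0.0% of 33759 probes, limma on the 10 early arrays). At an unadjusted p under 0.05 there were 8 of 77 transporter probes (10.4%), 3 rising and 5 falling with the day, against 5.28% over all probes, 2.08% rising and 3.2% falling. These 8 came from 5 genes, since SLC15A2, SLC1A3 and SLC7A7 had 2 probes each among them, and probes of 1 gene are not independent. The median slope of the 77 was 0.00 per 10 days, against -0.01 over all probes.

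SLC38A11 had the smallest p. Its slope was 0.62 ± 0.12 log2 units per 10 days (SE, limma adjusted p = 0.793). The lowest early level, -6.78, was that of cow 6 on day 42 and the highest, -3.33, that of cow 5 on day 86. Between them the order was not strict, since cow 4 on day 49 was at -4.92 and cow 1 on day 63 at -5.39. Leaving out any 1 cow gave slopes between 0.52 and 0.68, slide as a block gave 0.61, and normexp background correction 0.32. The slope of SLC15A2 was 0.42 ± 0.15 and 0.57 ± 0.23 on its 2 probes (SE, limma adjusted p = 0.909 and 0.929), where cow 9 on day 48 was lowest on both. Without cow 5, the last sampled, they were 0.66 and 0.90, and without cow 9 0.33 and 0.38.

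Slopes were negative for SLC1A3, at -0.41 ± 0.11 and -0.42 ± 0.12 per 10 days on its 2 probes (SE, limma adjusted p = 0.909 each), and for SLC43A2, at -0.26 ± 0.10 (SE, limma adjusted p = 0.909). On SLC1A3 probe A_73_104256 cow 9 was highest at -0.75 and cow 5, sampled last, lowest at -3.19. SLC7A7 had -0.15 and -0.14 per 10 days (limma adjusted p = 0.926 and 0.938). In these samples 11 of the 15 macrophage markers had an unadjusted p under 0.05 for the day, with a median slope of -0.32, and 1 of the 13 epithelial markers, with a median slope of 0.11. Over all probes 5.28% had such a p. The part of these markers in the slopes of the carriers was not tested.

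**Figure D4:**
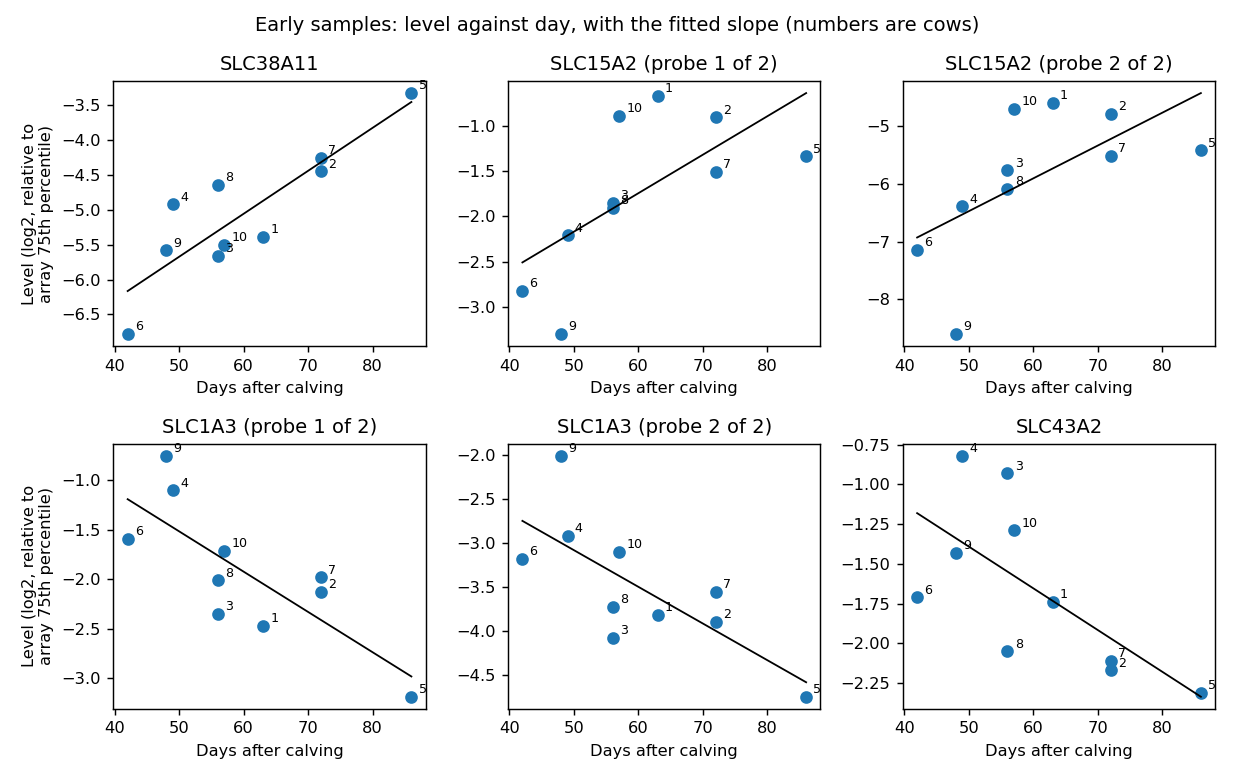
Level (log2 relative to the array's 75th percentile, vertical axis) against days after calving (horizontal axis) in the 10 early samples, numbered by cow, with the fitted line, for the 3 rising and 3 falling transporter probes of smallest p. Cow 5, sampled last on day 86, is highest for SLC38A11 and lowest for SLC1A3 and SLC43A2; no slope passed the adjusted threshold.

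In the late period, with 93 days between the first and the last cow, no transporter probe had a slope past the threshold (0.0% of all probes did), and 1 of 77 (1.3%) had an unadjusted p under 0.05, against 1.13% over all probes, 0.723% rising and 0.412% falling. That probe, falling, was A_73_P042586 of SLC38A10, at -0.07 per 10 days. The 77 late slopes ran from -0.15 to 0.24. SLC38A11 had 0.04 ± 0.10, SLC15A2 0.04 on both probes and SLC1A3 -0.06 and -0.02. The differences between early and late slopes were not tested.

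Each cow gave a pair of samples about a year apart, so differences that stay with a cow can be seen. A test of cow over both arrays of each animal, added after the values had been seen, called 3 of the 77 probes (3.90%; limma F test, Benjamini-Hochberg), against 2.27% of all probes. SLC43A3 was among them (limma adjusted p = 0.0125). Its level was 1.52, 1.89 and 1.26 early and 1.59, 1.97 and 1.72 late in cows 7, 8 and 10. The other 7 cows lay between -0.89 and 0.19 early and between -1.12 and -0.03 late, so that both arrays of those 3 cows stood apart from all others. Cows 7 and 8 shared both slides with each other, and the late arrays of cows 7, 8, 9 and 10 were all on slide 5. Cow 9, which shared both slides with cow 10, was at -0.30 and -1.12. The cause of these differences was not tested.

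SLC6A16, a member of the family with no known substrate, had a limma adjusted p of 0.0072 between cows. Cow 7 was lowest in both periods, at -8.98 and -8.62, and cows 1 and 10 were the highest early, at -5.46 and -5.53, and late, at -4.85 and -4.70. Only 7 early and 6 late arrays had this probe above background, so the low values are near it. The call of SLC43A3 was lost without cow 8 (limma adjusted p = 0.0645) and that of SLC6A16 without cow 7 (limma adjusted p = 0.0739) and after normexp background correction (limma adjusted p = 0.0758). With slide as a further block neither passed (limma adjusted p = 0.0748 and 0.0750). The F value of SLC43A3 was 16.9 there, against 12.5 without the slide.

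**Figure D5:**
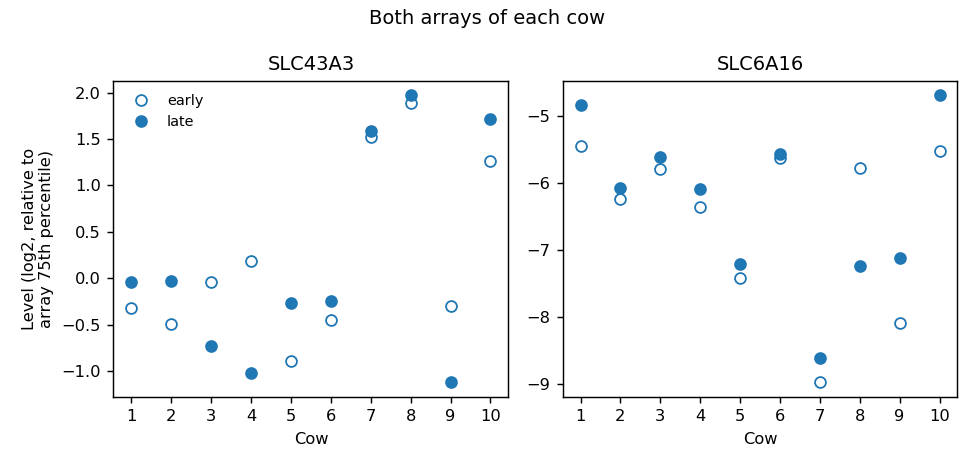
Level (log2 relative to the array's 75th percentile, vertical axis) of SLC43A3 and SLC6A16 in each of the 10 cows (horizontal axis), open circles early and filled circles late. Cows 7, 8 and 10 lie above 1 in both periods for SLC43A3, and cow 7 is lowest for SLC6A16 in both periods.

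Genes that work with the carriers were taken as 3 further lists. Of 41 genes tested of amino acid sensing, the starvation response and amino acid synthesis, none passed the threshold, and 5 were higher and 5 lower at an unadjusted p under 0.05, with a median change of 0.01. That is 24.4% of the list, which takes the brightest tested probe of each gene, against 23.8% of all probes tested, where a gene can have several. The change was positive for 21 of the 41 genes and negative for 20. ASNS, asparagine synthetase and a classic target of the starvation response, had -0.36 ± 0.10 (SE, limma adjusted p = 0.0867). MTOR, the kinase that amino acids switch on, had -0.25 ± 0.08 (SE, limma adjusted p = 0.0990). Of 11 genes tested of other amino acid carriers, none passed. The lysosomal cystine exporter CTNS had -0.38 ± 0.10 (SE, limma adjusted p = 0.0755), lower in 9 of 10 cows, and the mitochondrial glutamate carrier SLC25A22 had 0.29 ± 0.12 (SE, limma adjusted p = 0.188). Of 20 genes of arginine and polyamine metabolism, none passed either. GATM, which makes the precursor of creatine from arginine, had 0.64 ± 0.20 (SE, limma adjusted p = 0.104). DDAH1, which clears methylated arginines that block nitric oxide synthesis, had -0.43 ± 0.16 (SE, limma adjusted p = 0.136).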

How the data were processed

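Per the file headers, arrays were scanned and read with Agilent Feature Extraction 10.5.1.1, which deposited intensity values (background-subtracted processed signal); the authors' deposited log2 table served as an alternative. Here log2 of the processed signal was taken minus each array's 75th percentile, without flagged spots, and spots of a probe were averaged. Probes well above background on at least 8 of 20 arrays were tested, 33759 in all, each on its own. limma 3.58.1 (R 4.3.3; lmFit, eBayes, two-sided, Benjamini-Hochberg, threshold 0.05) compared late with early with cow as a fixed block; day slopes were fitted within each period per 10 days. Pairing comes from the titles and animal numbers; the source names of late samples carry other numbers. As a check, the 2 arrays of each cow, less their period's mean, had correlations of -0.11 to 0.77 (median 0.41), over 0.1 for 8 of 10 cows.

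The number of arrays limits the precision. On simulated data (33457 probes) the late against early test recovered 36% of changes of 0.5 log2, 80% of 1 and 98% of 2. The early slope test recovered 18%, 48% and 94% of slopes of 0.25, 0.5 and 1 per 10 days. The simulation changed a small set of probes drawn from all those tested. Its noise was independent between probes and held no slide effect. In the data the median SE late against early was 0.17 for the transporter probes, against 0.13 over all probes. Recovery for the transporters themselves was not simulated. Members and lists were chosen with earlier results of these data known. Full values are given, per family, for the brightest tested probe and that of smallest p, and for the 3 slopes of smallest p per direction; SLC43A3 and SLC6A16 were added from the cow test, and other genes are given by range, count or value. The counts include 1 gene whose values are not reported here.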

Additional observations from a re-analysis of the deposited data

Results flagged for a closer look

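In 2 of the 38 period groups of named probes tested, 1 of the 10 cows lay far from the rest by Dixon's gap criterion; chance gives about 1 in 20 groups. SLC36A4 was highest in the early sample of cow 8, at -3.87, with the next at -4.57. SLC43A2 was highest in the late sample of cow 3, at -0.49, with the next at -2.03. The macrophage and monocyte markers of that sample had a summed level of 6.43, the highest of the late samples, and the part of these cells in the value was not tested.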

How the results depend on the processing

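No transporter probe passed the late against early threshold without the replicate block (0 called), with slide as a fixed or random block or without cows 4 and 9. With cow as a random effect 5 passed (6.49% of the 77, against 4.55% of all probes): SLC15A3, SLC15A4, SLC7A7, SLC6A9 and SLC38A11. With quantile normalization 1 passed, SLC15A3 at -0.48 (limma adjusted p = 0.0443), and leaving out a cow gave 0 to 1. The median change kept within -0.08 to 0.04 over 24 alternatives, so its sign is not settled. Both day slopes kept 0 calls. The cow test gave 0 with slide as a block and 2 to 5 on leaving out a cow, with 5 without cow 9, when SLC38A10 and SLC6A14 were added. With slide as a fixed block 35 of the 77 probes turned sign. Among the probes given in full, SLC15A2 was at -0.0294 and -0.0564, SLC1A3 (A_73_104256) at 0.168, SLC36A4 at 0.619 and SLC43A3 at 1.48 there. Within slide 3 SLC1A1 was at 0.665, SLC1A4 at 0.551, SLC36A3 at -0.649, SLC36A4 at 0.167 and SLC38A2 at -0.071. SLC1A1 was at 0.00487 scaled to the median of detected probes, at 0.00362 with a random slide block, and between -0.315 and 0.189 on leaving out a cow. SLC43A3 was at 0.185 without cows 4 and 9, and between -0.129 and 0.0739 on leaving out a cow. The cause was not tested.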

Other observations

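A list of genes of the uterine cycle gave 0 calls among 8 tested late against early. It mixes LPL and DGAT2 with the receptors OXTR and ESR1, so its summed level does not rank how luteal a sample was. The fat-clearing enzyme LPL had a log2 change of 1.05 ± 0.48 (SE, limma adjusted p = 0.210) and the oxytocin receptor OXTR -1.21 ± 0.74 (SE, limma adjusted p = 0.337). The summed level of the list ran from 1.77 to 4.66 early and from 2.23 to 3.13 late. The early arrays of cow 4 (4.66) and cow 10 (4.61) stood apart, with the other 8 at or below 3.27, and the same 2 arrays had the lowest early levels of SLC6A20, the proline carrier. What this says of cycle stage was not tested. Of 8 endothelial and 8 smooth muscle markers tested, none passed, with medians of -0.12 and -0.06.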
